A study of Rattus norvegicus with 119 samples.

Results

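Nmur2 (ENSRNOG00000014081), Scara5 (ENSRNOG00000014398) and Slc26a7 (ENSRNOG00000006096) were followed here through Tag-seq, RNA-seq and single-cell RNA-seq (scRNA-seq) of the neonatal rat ventral mesenchymal pad (VMP). They are 3 of the 32662 genes in the count tables. Nmur2 and Scara5 were taken by their Ensembl identifiers and Slc26a7 by its symbol in the study's list of differential transcripts. The study had taken them up as candidate VMP transcripts from these libraries, so their direction here is a description and was not tested. In Rnor_6.0, Nmur2 lies on chromosome 10 from 41392666 to 41408518, Scara5 on chromosome 15 from 49069145 to 49177166, and Slc26a7 on chromosome 5 from 27986663 to 28177340.

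The products of these genes sit in the cell membrane. Nmur2 encodes a Gq-coupled receptor for the neuropeptides neuromedin U and neuromedin S, which in adult animals is best known from the nervous system. Scara5 encodes a class A scavenger receptor that binds ferritin and can bring iron into a cell without transferrin. Slc26a7 encodes a member of the SLC26 family of anion exchangers and channels. These proteins move chloride, bicarbonate and other anions across membranes, and Slc26a7 is best known from epithelia of the kidney and stomach. The VMP itself is a condensed mesenchyme of the urogenital sinus that can induce prostate development in adjacent epithelium under androgens.

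All tissue came from female Wistar rats on the day of birth (postnatal day 0). No agent or genetic change was used. The VMP was compared with the adjacent urethra (SU), made up of urethral epithelium, the mesenchyme around it and smooth muscle, in pools of microdissected tissue. Tag-seq was made from intact tissue, with 1 library per tissue. RNA-seq, also with 1 library per tissue, and scRNA-seq of 49 VMP and 66 SU cells on the Fluidigm C1 platform were made after collagenase digestion and straining, a step that left much of the epithelium behind as clumps. In intact tissue the 12 epithelial markers summed to 551 CPM in VMP and 9109 in SU, and in dissociated cells to 20.7 and 256 CPM, where CPM is the read count scaled to the library total. In bulk libraries, fewer cells of a type and less RNA per cell cannot be told apart. A marker was matched only if it stood in the study's lists of differential transcripts. Where only part of a marker list was matched, its sums thus describe genes listed as differential and do not measure the share of a cell type. Of the 7 matched mesenchymal markers, Col1a1, Col3a1 and Dcn had at least 5 reads in all 49 VMP and all 66 SU cells. In VMP cells Lum had as many in 33 cells, Pdgfra in 42, Pdgfrb in 7 and Twist1 in 6. The 7 markers summed to 45707 CPM in VMP and 22982 CPM in SU tissue, but to 22019 and 50244 CPM in dissociated cells. Of the 12 epithelial markers, 8 had no read in any VMP cell and 6 none in any SU cell. The 7 skeletal muscle markers summed to 1121 CPM in VMP and 5164 CPM in SU tissue, and to 42.7 and 307 CPM in dissociated cells. The 3 matched endothelial markers summed to more in VMP in both bulk assays, at 479 and 143 CPM in tissue and 715 and 251 CPM in dissociated cells, and ran from 1.07 to 2839 CPM over VMP cells and from 0 to 4939 over SU cells. In summed single cells Kdr was higher in VMP (269.9 and 52.9 CPM), while Cdh5 (40.5 and 173 CPM) and Emcn (49.9 and 257 CPM) were higher in SU. The 2 matched smooth muscle markers summed to 652 and 764 CPM in tissue and to 148 and 30.4 CPM in dissociated cells. Cd74, a leukocyte marker, had 30.4 and 92.4 CPM in tissue and 39.6 and 33.1 in dissociated cells. The part of such cells in the values below was not tested.

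Depth was 7870450 (VMP) and 8215177 (SU) counts in Tag-seq and 4397699 and 7007767 counts in RNA-seq. The single cells held 248738 to 1200734 counts in VMP (median 614376) and 199849 to 1488320 in SU (median 631066), so the tissues were read to a like depth per cell. With 1 library or 1 pool of cells per tissue there was no replicate check. All intervals below are 95% intervals that cover counting error only, and they compare these libraries rather than the tissues in general.

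The level of each gene was first read in tissue pools. All 3 genes were higher in the VMP than in the SU library in both Tag-seq and RNA-seq. Nmur2, the neuromedin receptor, was the least abundant. Its Tag-seq count was 167 in VMP and 18 in SU, which is 21.2 CPM (18.1 to 24.7) and 2.19 CPM (1.30 to 3.46). Its RNA-seq count was 71 in VMP and 7 in SU, which is 16.1 CPM (12.6 to 20.4) and 0.999 CPM (0.402 to 2.06). The SU levels of Nmur2 were thus near the limit of what these libraries could count. With TMM scaling, which sets the libraries to a common trimmed mean of log ratios, Nmur2 was 8.75-fold higher in VMP in Tag-seq, which is 3.13 (2.46 to 3.95) on the log2 scale. In RNA-seq it was 3.72 (2.69 to 5.17), or 13.2-fold. The intervals of both ratios overlap, so at this depth no difference between the assays was detectable for Nmur2.

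Scara5, the ferritin receptor, had a Tag-seq count of 895 in VMP and 250 in SU, or 114 CPM (106 to 121) and 30.4 CPM (26.8 to 34.4). In RNA-seq the counts were 263 and 45, or 59.8 CPM (52.8 to 67.5) and 6.42 CPM (4.68 to 8.59). Of the 3 genes it had the smallest ratio of VMP over SU in both assays. Its log2 ratio was 1.79 (1.59 to 2.00) in Tag-seq, or 3.45-fold. In RNA-seq it was 3.0 (2.55 to 3.5), or 7.99-fold, and these intervals do not overlap.

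Slc26a7, the anion exchanger, was the most abundant in VMP. Its Tag-seq count was 1097 in VMP and 233 in SU, or 139 CPM (131 to 148) and 28.4 CPM (24.8 to 32.2). In RNA-seq 2464 counts were found in VMP and 223 in SU, or 560.3 CPM (538 to 583) and 31.8 CPM (27.8 to 36.3). In CPM, the SU value was close in the 2 assays, while the VMP value was higher in RNA-seq. These CPM are unlike measures, since RNA-seq counts grow with transcript length and Tag-seq counts do not. Its log2 ratio was 2.18 (1.98 to 2.40) in Tag-seq, or 4.54-fold. In RNA-seq it was 3.93 (3.73 to 4.13), or 15.2-fold. The assays differ in chemistry and in dissociation, and their parts in the larger RNA-seq ratios of Scara5 and Slc26a7 cannot be told apart.

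**Figure D1:**
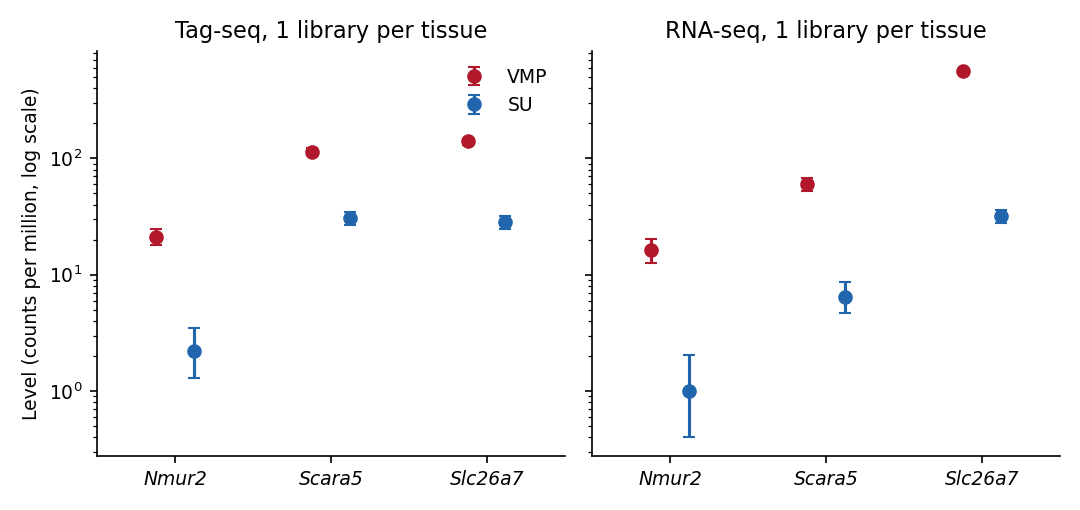
Level of each gene in CPM (vertical axis, log scale) in the VMP (red) and SU (blue) libraries of Tag-seq (left) and RNA-seq (right), 1 library per tissue. Bars are 95% Poisson intervals of the counts and cover counting error only, and the VMP level lies above the SU level for all 3 genes in both assays.

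A Tag-seq count does not grow with transcript length, so its CPM was set side by side between genes. Whether the tags of these genes were recovered equally well was not tested. In VMP tissue the order was Slc26a7 (139 CPM), Scara5 (114 CPM) and Nmur2 (21.2 CPM), with no overlap of intervals. In SU tissue Scara5 (30.4 CPM) and Slc26a7 (28.4 CPM) did not differ beyond counting error, and Nmur2 (2.19 CPM) was lower. For RNA-seq the CPM was divided by the annotated length, which is 3302 bases for Nmur2, 3798 for Scara5 and 4247 for Slc26a7. In dissociated VMP cells the level per kilobase was 132 CPM for Slc26a7, 15.7 for Scara5 and 4.89 for Nmur2, and in SU it was 7.49, 1.69 and 0.303. Slc26a7 thus stood well apart from Scara5 in RNA-seq of dissociated VMP cells but lay close to it in Tag-seq of VMP tissue. The parts of chemistry and dissociation in this cannot be told apart.

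Transcripts were called differentially expressed (DE) where q was at least 0.9 (q ranks a difference against the noise of simulated libraries and is no p-value). In Tag-seq all 3 genes were called toward VMP, with q of 0.996 for Nmur2, 0.954 for Scara5 and 0.978 for Slc26a7, against 8.90% of all 12191 transcripts compared. In RNA-seq all 3 were called toward VMP, with q of 0.998, 0.995 and 1.000, against 10.5% of 17527. With the further limit of a log2 ratio of 1.5, all 3 still passed in both assays, against 4.91% of the Tag-seq and 8.76% of the RNA-seq transcripts. The median log2 ratio over all transcripts was 0.01 in Tag-seq and 0.03 in RNA-seq. Ranked by log2 ratio toward VMP, Nmur2 stood at place 74, Slc26a7 at 294 and Scara5 at 594 of 12191 in Tag-seq. In RNA-seq, Slc26a7 stood at place 1109, Nmur2 at 1138 and Scara5 at 1587 of 17527. The genes had been chosen by the study for this pattern, so nothing is read from these shares and places.

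Single cells showed how the summed levels came about, and the genes differed in this. Slc26a7 had reads in all 49 VMP cells (100%, exact Clopper-Pearson interval 92.7 to 100), Nmur2 in 27 (55.1%, 40.2 to 69.3) and Scara5 in 19 (38.8%, 25.2 to 53.8). In SU cells neither Nmur2 nor Scara5 had a single read in any of 66 cells, which allows a share of cells with a read of up to 4.55% when 3 cells are taken as the limit behind a count of 0, and of up to 5.44% by the exact interval. Slc26a7 had reads in 44 of the 66 SU cells (66.7%, 54 to 77.8). Among 8879 genes with reads in at least 10 VMP cells, 0.237% (21 genes) had no read in any SU cell. By summed VMP reads, Scara5 was the first and Nmur2 the eighth of those 21. Without the top cell of each gene, Scara5 had 242 reads and Nmur2 had 192.

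The share of Nmur2 and Scara5 cells rested on very low counts. Nmur2 had a median of 1 read in its 27 positive VMP cells, with 14 cells at exactly 1 read and 20 cells at 1 to 4 reads. Its 7 cells with at least 5 reads held 193, 108, 20, 14, 8, 7 and 7 reads. The top cell held 50.1% of the 385 Nmur2 reads and the top 2 cells together 78.2%, so most VMP cells contributed little or nothing to the summed level. Scara5 was still more uneven. Its median was 2 reads in 19 positive cells, 16 of which had 1 to 4 reads, and only 3 cells had at least 5 reads, with 2933, 199 and 12. The cell with 2933 reads held 92.4% of all 3175 Scara5 reads in VMP cells, and the top 2 cells held 98.6%.

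**Figure D2:**
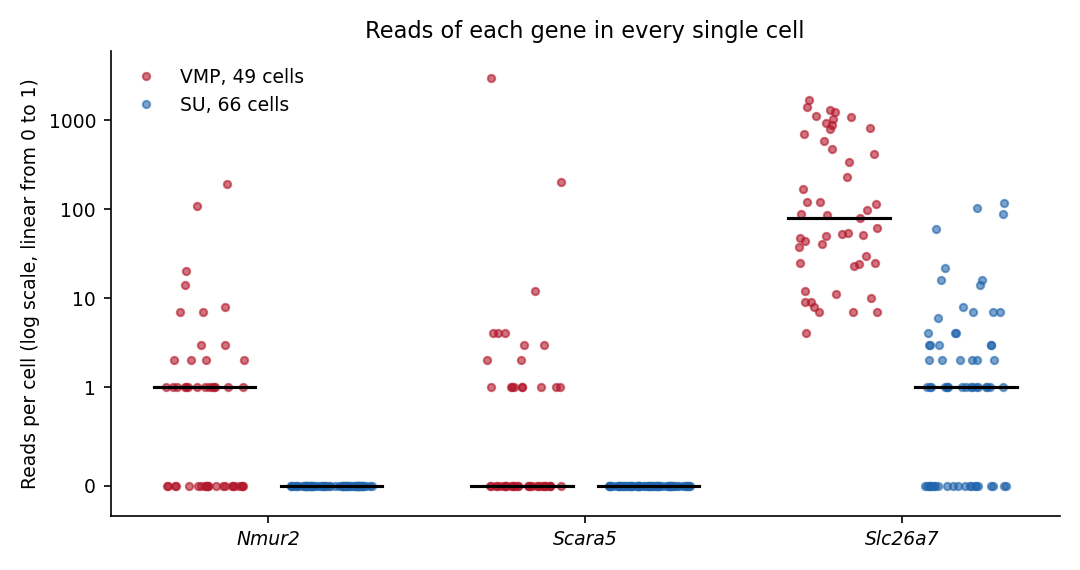
Reads of each gene in every cell (vertical axis, log scale that is linear from 0 to 1) for 49 VMP cells (red) and 66 SU cells (blue), spread sideways at random, with the median as a black line. All SU cells lie at 0 for Nmur2 and Scara5, the median of Slc26a7 is 80 reads in VMP and 1 in SU, and a single VMP cell with 2933 reads stands far above the other cells for Scara5.

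At the stricter limit of 5 reads, Nmur2 was found in 14.3% of VMP cells, Scara5 in 6.12% and Slc26a7 in 98.0%, and Slc26a7 in 19.7% of SU cells. The share also depended on depth. When every cell was thinned to the 199849 counts of the shallowest cell, the expected share was 31.8% for Nmur2, 23.8% for Scara5 and 99.1% for Slc26a7 in VMP, and 41.2% for Slc26a7 in SU. Nmur2-positive VMP cells had a median of 642966 counts and the others 547150.5, while Scara5-positive cells had 546356 and the others 640941.5. By their medians, Nmur2-positive cells were thus the deeper and Scara5-positive cells the shallower ones, and the part of depth in either share was not tested beyond the thinning.

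Slc26a7 varied over a wide range in VMP cells, but without cells at 0. It had 4 to 1686 reads per VMP cell with a median of 80, and 21 of the 49 cells had more than 100 reads. As CPM of each cell it ran from 6.45 to 3025, with quartiles at 46.7, 131 and 965, and 12 cells were above 1000 CPM. The top cell held 10.2% of the 16459 reads, and it took 7 cells to reach 50% of them. The 3 cells with the most Slc26a7 reads (1686, 1396 and 1286) stood at 1889, 1488 and 2780 CPM of Slc26a7. They held 558, 957 and 346 CPM of the 2 matched smooth muscle markers, against the VMP median of 6.29 CPM. The part of this in their Slc26a7 level was not tested. The cells with the highest Slc26a7 CPM (3025 and 2973) were not among them, and their markers are not given. In SU cells the level ran from 0 to 219 CPM with a median of 1.53 CPM. The ranges of the tissues therefore overlapped. Of the VMP cells, 21 of 49 lay above the highest SU cell, and 16 of the 66 SU cells lay at or above the lowest VMP cell, 3 of them above the VMP median. The labels give 52 VMP and 63 SU cells rather than 49 and 66, and the part of this mismatch in the overlap was not tested.

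The SU reads of Slc26a7 were held by few cells. Of 526 reads, the top cell had 116 (22.1%), the next 104, then 88 and 59, and it took 3 cells to reach 50% of them. In 31 of the 44 positive SU cells there were 1 to 4 reads, and 17 of these had exactly 1. All 7 mesenchymal markers with an identifier were detected in the 4 top SU cells, and of the 12 epithelial markers at most 1 was detected. The 3 matched endothelial markers were also detected in each, at 8.53 to 20.5 CPM in sum, and the second cell held 530.4 CPM of skeletal muscle markers. Col3a1, a fibrillar collagen, had 3366 to 7012 reads in these 4 cells.

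How strongly a gene is concentrated in a single cell can be compared across the table. Among 7184 genes with reads in at least 10 VMP cells and at least 300 summed reads, the top cell held a median of 28.7% of the reads. Scara5 stood at place 49 from the most concentrated, Nmur2 at 1177 and Slc26a7 at 6508. More than 50% of the reads lay in 1 cell for 16.5% of these genes, Nmur2 and Scara5 among them. Both also had reads outside the top cell, in 18 other VMP cells for Scara5 and 26 for Nmur2. Of these cells, 16 and 20 held 1 to 4 reads. In 65 genes that, like Scara5, had at least 1000 reads and at least 90% of their reads in 1 VMP cell, a median of 7 other cells (2 to 40) had reads, and 21 of these genes had reads in at least 10 others. A median of 85.7% of those other cells had 1 to 4 reads. Whether single reads in a cell came from that cell or from another one on the chip was not tested.

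**Figure D3:**
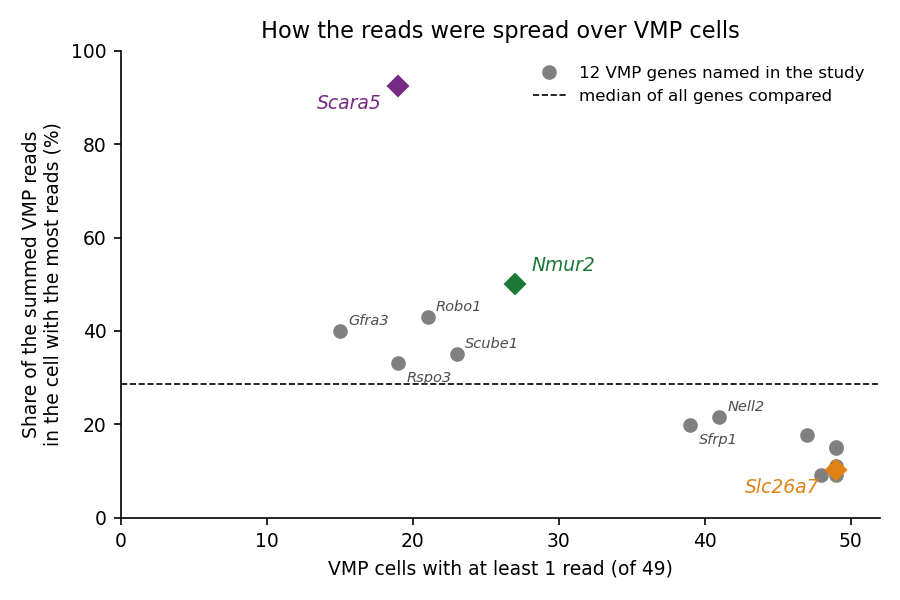
Share of the summed VMP reads held by the cell with the most reads (vertical axis, percent) against the number of VMP cells with at least 1 read (horizontal axis), for Nmur2, Scara5 and Slc26a7 (coloured) and 12 VMP genes named in the study (grey). Scara5 lies at 92.4% with 19 cells, Nmur2 at 50.1% with 27 cells and Slc26a7 at 10.2% with 49 cells, and the dashed line is the median of 28.7% over 7184 genes.

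The cells with the most Nmur2 and Scara5 reads were looked at for what else they expressed. The VMP cell with 193 Nmur2 reads had 1881 reads of Col3a1 and 474 of Lum, no read of the 12 epithelial markers, and reads of all 3 endothelial markers that had an identifier, with 520 reads of Emcn, 36 of Kdr and 4 of Cdh5. It also held 435 CPM of skeletal muscle markers. The VMP cell with 108 Nmur2 reads had all 7 mesenchymal markers, no epithelial marker, and 1 read of Emcn and 0 of Cdh5. Both cells also had reads of both matched smooth muscle markers, at 858 CPM in the first and 1048 CPM in the second, the highest of all VMP cells, against a median of 6.29 CPM. Their mesenchymal markers, at 4087 and 7411 CPM, lay below the VMP median of 10715 CPM. The 2 cells rich in Nmur2 thus had high sums of the 2 matched smooth muscle markers, Lmod1 and Des, and differed in endothelial markers. The part of other cell types in their Nmur2 reads was not tested. Slc26a7 was low in both, at 47 and 4 reads.

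The cell with 2933 Scara5 reads was the deepest VMP cell, with 1200734 counts. It had 4596 reads of Dcn, 4078 of Col3a1 and 2005 of Fgf10, and no read of Lum or Emcn. It also had 2795 reads of Kdr, a receptor of vascular endothelial growth factor, with 16 of Cdh5, and this was 34.7% of all Kdr reads in VMP cells. Slc26a7 had 50 reads in it and Nmur2 none. The next Scara5 cell, with 199 reads, had 1818 reads of Dcn, 4 of Kdr and 414 of Slc26a7. Doublets were not called, and whether any of these cells held RNA of more than one cell was not tested.

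Summed over cells, Nmur2 reached 12.9 CPM in VMP and Scara5 107 CPM. Since SU had no read of either, the fold was taken against a floor of 3 counts summed over the SU cells. It is a nominal lower bound only, since the exact upper limit of the SU count is 3.69. Against the floor, Nmur2 was 190.3-fold higher in VMP, and 97.7-fold without its top cell. Scara5 was 1569.5-fold higher, but 125-fold without its top cell, when its VMP level fell to 8.46 CPM. Slc26a7 had 552 CPM in VMP and 11.9 in SU, a log2 ratio of 5.53 (5.41 to 5.66) or 46.4-fold, and 54.1-fold without the top cell of each tissue. The log2 ratio toward VMP was at least 1.5 for 12.9% of 12522 genes compared in this way. The summed Scara5 level thus rested on 1 cell, and that of Slc26a7 did not.

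Set beside RNA-seq of the bulk cells, the summed VMP cells gave 0.80 of the bulk CPM for Nmur2, 1.78 for Scara5 and 0.985 for Slc26a7. Without the top cell these ratios were 0.410, 0.141 and 0.912, so only Slc26a7 stayed near its bulk level in both cases. Its 511 CPM without the top cell still lay below the bulk interval of 538 to 583 CPM. Had SU cells held the bulk SU level, 44.2 reads of Nmur2, 284 of Scara5 and 1407 of Slc26a7 would have been found over the 66 cells. There were 0, 0 and 526. The sampled SU cells thus held fewer reads of all 3 genes than their bulk SU level gives. Which SU cells carried them cannot be told from 66 cells.

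Co-detection showed how the genes fell over the same VMP cells. Because Slc26a7 had reads in every VMP cell, each Nmur2 cell and each Scara5 cell was also a Slc26a7 cell. All 3 genes had reads in 9 cells, Nmur2 and Slc26a7 without Scara5 in 18, Scara5 and Slc26a7 without Nmur2 in 10, and Slc26a7 alone in 12. Nmur2 and Scara5 met in 9 cells, where 10.5 would be found if the genes were unrelated. At 5 reads or more they met in 0 cells, with 0.429 if unrelated, so 7 Nmur2 cells and 3 Scara5 cells are too few to show whether the genes avoid each other. At that limit Nmur2 and Slc26a7 met in 6 cells (6.86 if unrelated) and Scara5 and Slc26a7 in 3 (2.94).

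**Figure D4:**
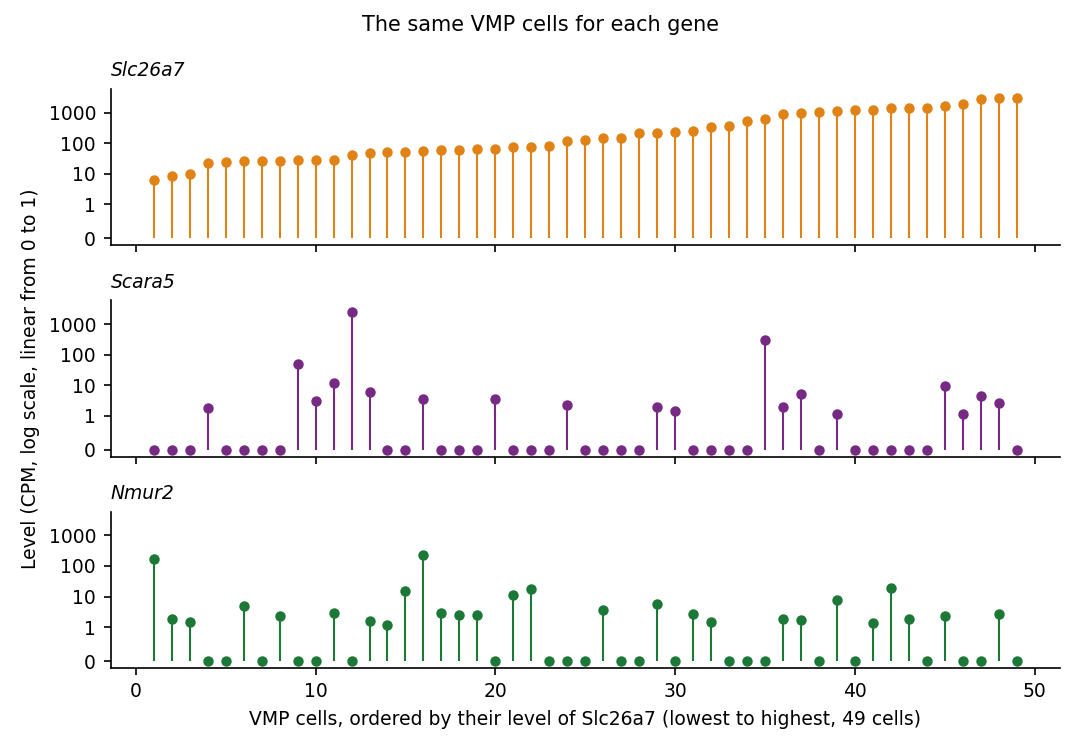
Level of Slc26a7, Scara5 and Nmur2 (vertical axes, CPM, log scale that is linear from 0 to 1) in the same 49 VMP cells, ordered from the lowest to the highest Slc26a7. The cell with the most Scara5 reads and the 2 cells with the most Nmur2 reads lie below the Slc26a7 median of 131 CPM, the second Scara5 cell lies above it at 607 CPM, and the low levels of both genes are found along the whole range.

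Slc26a7 was at a median of 76.7 CPM in the 27 Nmur2-positive VMP cells and 181 CPM in the 22 others. It was at 223 CPM in the 19 Scara5-positive cells and 106 CPM in the 30 others. The lowest cell of a set lay at 6.45 or 22.0 CPM and the highest at 2973 or 3025 CPM, so the sets overlapped over almost the whole range. In the 7 cells with at least 5 Nmur2 reads the median was 76.7 CPM (6.45 to 1455), and in the 3 with at least 5 Scara5 reads 41.6 CPM (28.1 to 607). As a description over 49 cells of 1 pool, Spearman's rho of CPM was -0.12 for Nmur2 and Scara5, -0.14 for Nmur2 and Slc26a7, and 0.06 for Scara5 and Slc26a7. The rho of each gene's CPM with the counts per cell was 0.33, -0.08 and 0.28 for Nmur2, Scara5 and Slc26a7. No pair of the genes was thus more closely related over cells than Nmur2 was to depth.

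The 12 VMP genes that the study names (Fgf10, Ptn, Scube1, Ebf3, Gfra3, Rspo2, Rspo3, Robo1, Meis2, Nell2, Sfrp1 and Igf2) were chosen on these or like tissues and are no independent reference. All 12 were called toward VMP in Tag-seq and in RNA-seq, with median log2 ratios of 2.09 and 2.69. The 3 SU genes Anxa1, Enpp2 and Unc5b were called toward SU in both. Fgf10, the growth factor of this mesenchyme, can be set beside Slc26a7. It had 452 CPM in summed VMP cells and 20.5 in SU, reads in 49 VMP and 65 SU cells, and 14.9% of its VMP reads in the top cell. Its log2 ratios were 1.81 in Tag-seq and 4.06 in RNA-seq, again larger in dissociated cells. Gfra3, a receptor of the GDNF family, and Rspo3, a secreted Wnt modulator, can be set beside Nmur2 and Scara5. Gfra3 had reads in 15 VMP and 2 SU cells with 39.9% of VMP reads in the top cell, and Rspo3 in 19 VMP and 2 SU cells with 33.1%. At the limit of 5 reads, Nmur2 met Gfra3 in 0 cells (1.57 if unrelated), while all 11 Gfra3 cells, all 9 Rspo3 cells and all 18 Robo1 cells had Slc26a7. The latter follows from Slc26a7 being at that limit in 48 of 49 cells.

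**Figure D5:**
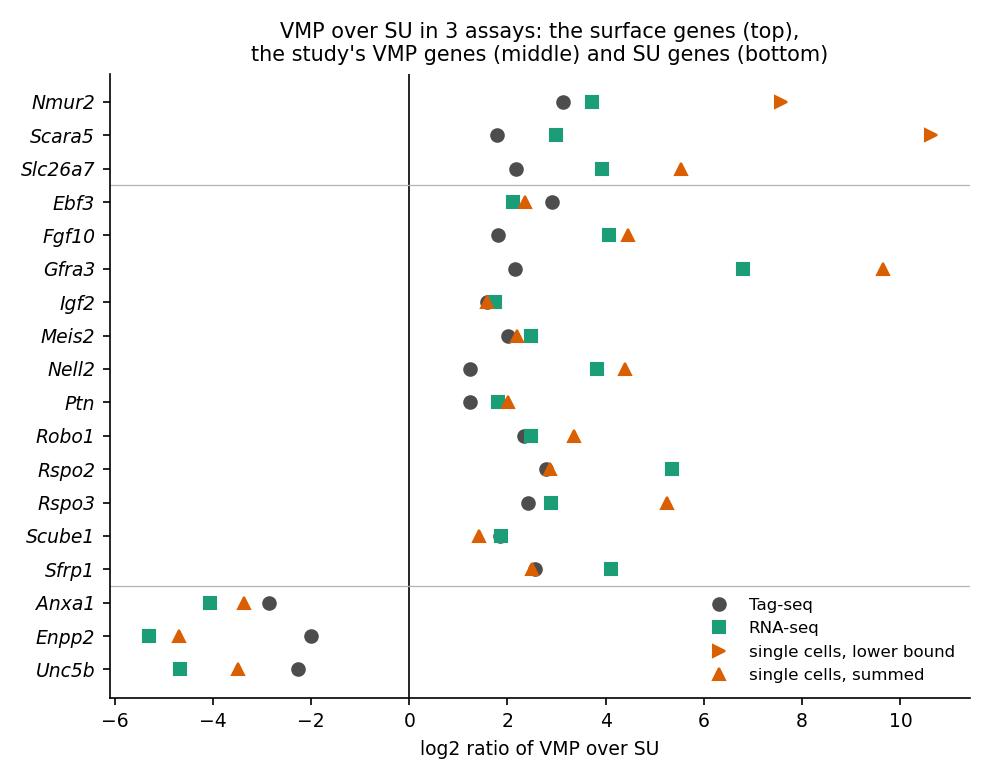
Log2 ratio of VMP over SU (horizontal axis) in Tag-seq, RNA-seq and summed single cells for the surface genes (top), 12 VMP genes (middle) and 3 SU genes (bottom) named in the study. The single-cell values of Nmur2 (7.57) and Scara5 (10.62) are nominal lower bounds against a floor of 3 SU counts, and that of Gfra3 rests on 2 SU reads.

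Other genes of the same pathways could be read only where the study's lists gave an identifier, which holds for DE transcripts alone, so no count over a pathway is given. Of the neuromedin ligands and receptors only Nmur2 itself had one, of the class A scavenger receptors only Scara5, and of the SLC26 family only Slc26a7. Among transcripts of Gq signalling, Plcb4, a phospholipase C isoform, had 1027 and 654 counts in VMP and SU Tag-seq and was not called there (log2 ratio 0.60), while in RNA-seq it had 775 and 281 and was called toward VMP (1.93). Plcb4 had reads in 48 VMP and 56 SU cells. Itpr1, an IP3 receptor, was called toward SU in both assays (-3.62 and -1.25) and Itpr3 in Tag-seq only (-2.36, against -1.10 in RNA-seq). Rgs2, which limits Gq signals, was called toward SU in RNA-seq (-2.83) and not in Tag-seq (0.01).

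Of the genes of iron handling, Hmox1, the haem oxygenase that frees iron from haem, was called toward VMP in Tag-seq (log2 ratio 1.5) and not in RNA-seq (-0.18). It had 1 read in 49 VMP cells and 1164 in SU cells, in 12 of 66. Scara5 and Hmox1 thus lay on the same side in tissue and on opposite sides in single cells. Of genes that handle bicarbonate, Car2, a carbonic anhydrase, was called toward SU in both assays (-4.80 and -2.65), with no read in VMP cells and 353 reads in 7 SU cells.

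The genes whose levels were most like those of each surface gene over the 49 VMP cells were found by Spearman's rho of CPM among 1246 or 1247 genes with a symbol. For Nmur2 these were Spag1 (0.57), Tmem256 (0.51), Flt1 (0.49), Murc (0.48) and Ypel4 (0.47). For Scara5 they were Stmn2 (0.47), Rpl39 (0.44), Vipr2 (0.43), Muc15 (0.41) and Hk2 (0.41). For Slc26a7 they were Btbd19 (0.43), G0s2 (0.41), Asf1a (0.40), Ddx39b (0.40) and Ctdspl2 (0.40). The values of Nmur2 and Scara5 come mostly from cells with 0 to 4 reads, and cells share depth and the pool they came from. Only for Slc26a7 could the same be read in SU cells, where rho was 0.13 for Btbd19, 0.20 for G0s2, -0.27 for Asf1a, -0.29 for Ddx39b and -0.04 for Ctdspl2. In SU cells the sign was thus kept for Btbd19 and G0s2 and turned for the other 3.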

How the data were processed

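The VMP and SU of female rats at P0 were measured by Tag-seq, RNA-seq and scRNA-seq, with groups taken from the labels for tissue and assay. The deposited values are counts of reads per Ensembl gene, which the authors left without normalization. For Tag-seq the authors trimmed reads to the tag and aligned them to Rnor_6.0 with Bowtie2, keeping unique alignments. For single cells the authors used Trimmomatic 0.33 and TopHat and removed amplification duplicates with Picard 1.128. The counter is summarizeOverlaps in the methods and HTSeq in the submitters' processing notes, and the alignment of bulk RNA-seq is not described apart. Spike-in rows were left out of library sizes. The labels give libraries from 52 VMP and 63 SU cells, the tables hold 49 and 66, of which a filter at 3 MADs left 47 and 65. No cell columns were identical (0 pairs), and 33 chamber numbers were used in both tissues.

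Log2 ratios used TMM factors (edgeR 4.0.16 in R 4.3.3) and a pseudocount of 0.5 counts. DE calls followed the scheme of NOISeq for unreplicated libraries, rewritten in Python 3.11.15 with pandas 2.3.3, scipy 1.17.1 and numpy 2.4.6. A transcript needed a CPM above 1 in either library, each tissue got 5 simulated libraries with 20% of its depth and a variability of 0.02, counts of 0 were set to 0.5, and q had to reach 0.9. Intervals are exact Poisson, Clopper-Pearson, or the interval of a ratio of 2 counts, at 95%. A fold against 0 used 3 counts as the floor. No test was made, since a tissue had 1 library or 1 pool of cells. The calls and summed ratios were tested on simulated data. Alternatives included total counts, DESeq2 1.42.0 size factors, spike-in scaling, thinning, 5 reads for detection and leaving out top cells. Figures used matplotlib 3.10.9.

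The text names the 3 genes, for each the 5 genes with a symbol and the highest rho over VMP cells among genes with reads in at least 20 of 115 cells and at least 10 VMP cells, and list genes where a list is discussed. Members and lists were chosen with earlier results of these data known. Symbols, lengths and coordinates came from the study's DE tables, which pair 2995 identifiers with symbols in the parts used here. Lists with under 80% of their genes matched are void as sets and get no median log2 ratio over their genes: neuromedin (1 of 4), Gq signalling (4 of 13), class A scavenger receptors (1 of 5), iron handling (1 of 12), SLC26 (1 of 11), other chloride and bicarbonate transport (2 of 10), mesenchyme (7 of 10), smooth muscle (2 of 7), endothelial (3 of 6) and leukocyte (1 of 7). Sums over the matched markers of such a list, and the median of these sums over cells, describe those markers only. A further marker list is not reported here. The epithelial (12 of 12) and skeletal muscle (7 of 7) lists and the VMP (12 of 12) and SU (3 of 3) genes were matched in full.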

Additional observations from a re-analysis of the deposited data

How the results depend on the processing

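Of 63 recomputed values that answer a comparison, 40 stayed within the limits of the main value and 23 moved. Only the log2 ratios have a direction, and none of them changed it. The SU shares of Nmur2 and Scara5 were 0 and could not move, so they count among the 40 without being a check. With q of at least 0.95 the calls fell from 2667 to 1217 in Tag-seq and from 3943 to 2037 in RNA-seq. Scaling by total count alone raised the RNA-seq log2 ratio of Slc26a7 to 4.14, lowered the share of calls toward SU from 59.3% to 51.9% in Tag-seq and from 53.4% to 41.8% in RNA-seq, and moved the median log2 ratio from 0.01 to 0.12 and from 0.03 to 0.24. At 5 reads, detection was 14.3% for Nmur2 and 6.12% for Scara5 in VMP and 19.7% for Slc26a7 in SU. After thinning it was 31.8%, 23.8% and 41.2%. Co-detection of Nmur2 and Scara5 was 0 cells at 5 reads and 2.92 after thinning, of Nmur2 and Slc26a7 6 and 15.3, and of Scara5 and Slc26a7 3 and 11.7. The single-cell log2 ratio is a nominal lower bound for Nmur2 and Scara5. It was 7.30, 9.74 and 5.27 for Nmur2, Scara5 and Slc26a7 from the mean CPM of each cell. Without the top cell it was 6.61, 6.96 and 5.76. With spike-in scaling it was 9.70 for Scara5 and 4.98 for Slc26a7. The pseudocount of 5 could not be applied to the bounds. Of the 5 most alike genes, spike-in scaling kept 3 for Nmur2 and 1 for Slc26a7.

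Depth limits the Nmur2 values most, with 18 and 7 counts in the SU libraries, and a median of 1 read in positive cells. With 0 of 66 SU cells, a share of cells with a read of up to 5.44% remains possible for Nmur2 and Scara5 by the exact interval. Reads were not counted by molecule. The intervals of read counts treat each read as independent, which was not tested, and cover no error beyond that.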
